A study of Mus musculus with 8 samples.

Results

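Rab3ip, Cobll1, Chka, Tesc, Rnf128 and Lif are 6 of the 17326 genes with a recorded count, 0 included, for every library of a study of kidney endothelium and podocytes from mice with and without Emcn. They were chosen from these same data. Chka, Tesc, Rnf128 and Lif were lower in knockout endothelium by the Wald test of DESeq2 but were not called by the quasi-likelihood test of edgeR. Cobll1 and Rab3ip ranked 3 and 4 by p among all genes, both with a negative sign, for the difference between the knockout effects of the 2 cell types. Their lower level in knockout endothelium is therefore how they were found and is given below as a description. Endothelium against podocytes, with the 2 genotypes weighted equally, was not itself used in the choice. It does contain the knockout endothelium libraries whose low values led to the choice, so its calls are not independent evidence either.

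Emcn encodes endomucin, a sialomucin on the endothelial surface and part of its glycocalyx. RNA with poly(A) tails was sequenced from 8 libraries of kidney cells separated by flow sorting, in 4 groups of 2: endothelium and podocytes of EMCN+/+ (wild-type) and of EMCN-/- (knockout) mouse kidney. Each group held the replicates numbered 2 and 3 in the labels, and no treatment was named for any group. The sort's markers, how the allele was made, the animals' ages, and whether libraries came from separate animals are not given in the sources used here, so p-values measure the spread between these libraries, which may be technical.

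The 6 genes do not form a known pathway. Rab3ip encodes Rabin8, an exchange factor that loads the small GTPase Rab8 with GTP and so helps to carry membrane to the growing primary cilium. Cobll1 is a relative of Cobl (cordon-bleu), a protein that nucleates actin filaments. Chka is choline kinase alpha, the enzyme that phosphorylates choline at the entry to phosphatidylcholine synthesis. Tesc is tescalcin, a calcium-binding protein related to calcineurin B. Rnf128, also called GRAIL, is a ubiquitin ligase that spans the endosomal membrane and was described in T cell unresponsiveness. Lif is leukaemia inhibitory factor, a secreted cytokine of the interleukin 6 family that signals through the receptor Lifr and the shared subunit Il6st. In bulk RNA such as this, fewer cells that express a gene and less of its RNA per cell cannot be told apart.

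All 6 promoters were matched by symbol in a RefSeq table of assembly GRCm38.p6, as windows from 250 bases before to 50 bases after 1 start that the table lists for each gene. The Rnf128 window starts at 139610370 on chromosome X and the Cobll1 window runs from 65238742 to 65239041 on chromosome 2. Both windows lie inside the spans of their genes given below, so they belong to internal starts. The Chka window begins at 3851523, less than 250 bases before its span, so its start also lies inside the span. The windows of Rab3ip, Chka and Lif are shown for their motif matches. These are the GC boxes of Rab3ip, the CCAAT boxes found in Chka alone, and the AP-1 and CACCC matches found in Lif alone. The Cobll1 window held none of the motifs searched and is not shown. Capitals mark the motif matches, and each sequence reads 5′ to 3′ on the strand of the gene.
Rab3ip, chr10:116950404-116950703, minus strand: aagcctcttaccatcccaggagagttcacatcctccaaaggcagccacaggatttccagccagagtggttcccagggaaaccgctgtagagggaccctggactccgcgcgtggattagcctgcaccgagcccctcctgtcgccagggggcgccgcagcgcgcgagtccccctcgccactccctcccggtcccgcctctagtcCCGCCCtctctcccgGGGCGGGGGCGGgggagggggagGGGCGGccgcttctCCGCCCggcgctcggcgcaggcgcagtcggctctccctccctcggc
Chka, chr19:3851523-3851822, plus strand: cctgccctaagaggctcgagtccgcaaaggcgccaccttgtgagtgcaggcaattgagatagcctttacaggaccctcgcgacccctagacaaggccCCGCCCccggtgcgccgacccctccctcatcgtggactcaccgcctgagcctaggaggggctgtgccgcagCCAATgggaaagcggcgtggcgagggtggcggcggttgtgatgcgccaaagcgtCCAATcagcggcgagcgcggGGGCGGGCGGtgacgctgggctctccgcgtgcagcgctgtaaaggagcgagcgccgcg
Lif, chr11:4257318-4257617, plus strand: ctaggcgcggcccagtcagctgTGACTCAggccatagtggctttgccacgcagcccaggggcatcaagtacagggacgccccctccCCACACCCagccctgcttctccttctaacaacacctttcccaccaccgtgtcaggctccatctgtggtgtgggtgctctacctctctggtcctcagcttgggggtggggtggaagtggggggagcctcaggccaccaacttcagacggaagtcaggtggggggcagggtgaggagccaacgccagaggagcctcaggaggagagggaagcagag
The Rab3ip window held 5 GC boxes (GGGCGG on either strand), with some of them overlapping or touching one another. In the Chka window there were 3 GC boxes, also partly overlapping, and 2 CCAAT boxes. The Lif window held 1 AP-1 match (TGANTCA) at position -228 from the start and 1 KLF-type CACCC match (CCACACCC) at -164.

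Among the 6 windows 4 held a GC box (Rab3ip, Chka, Tesc and Rnf128), against 35.7% of the 32851 promoters in the table. An AP-1 match was found in 1 of 6 windows against 7.81% of all promoters, the CACCC match in 1 of 6 against 3.56%, and CCAAT in 1 of 6 against 37.4%. All motifs were searched on both strands. No window held the cAMP response element (TGACGTCA), found in 1.79% of all promoters, a heat shock element (GAANNTTC, 7.86%) or an ETS site (ACCGGAAG, 2.30%). The E-box with the letters CACGTG was also missing from all 6 windows and was found in 7.15% of all promoters. The same was so for a box with the letters TATAAA, which 13.6% of all promoters held. The Lif window differed from the others in its CpG count. It held 7 CpG dinucleotides, which was also the median of all promoters, whereas the other 5 held between 26 (Rnf128) and 39 (Cobll1). How far the windows match the starts used in these cells is not known: the 3′ end of the Cobll1 window lies in 0 of 13 GENCODE transcripts of the gene, and that of each other window in 1 transcript of several (1 of 14 for Chka). GC content ran from 63.0% (Rnf128) to 75.3% (Cobll1), all above the median of 52.7%. These matches describe the sequence and were not related to the expression values.

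The 6 genes lie on 6 chromosomes. In the same assembly, build mm10 in the submitters' processing notes, Rab3ip spans 116905780 to 116950456 on chromosome 10 and Cobll1 spans 65088339 to 65239398 on chromosome 2. Rab3ip overlaps the annotated gene Gm51782, and Cobll1 overlaps LOC115489595 and Gm13594. None of these 3 had a complete line in the count table, and whether counting used strand is not given in the sources used here, so the counts of Rab3ip and Cobll1 may include their reads. Chka (chromosome 19, 3851585 to 3894369), Tesc (chromosome 5, 118027743 to 118061878), Rnf128 (chromosome X, 139563340 to 139673145) and Lif (chromosome 11, 4257568 to 4272514) overlap no annotated gene.

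The libraries held between 10478956 and 17386042 counts on complete lines, of which 10.1% to 26.2% were mitochondrial. Wild-type endothelium replicate 3 had the largest mitochondrial share. Emcn itself was at 1972 and 1828 CPM (counts scaled to a common library size with the trimmed mean of M-values) in wild-type endothelium and at 173 and 179 in knockout endothelium (edgeR adjusted p = 0.0205). All 15 endothelial markers were higher in the endothelium libraries and all 9 measured podocyte markers were higher in the podocyte libraries by the edgeR test. The podocyte marker sum was still 1458 to 2526 CPM in endothelium against 8829 to 19500 CPM in podocytes, and the endothelial sum was 601 to 984 CPM in podocytes against 10900.0 to 13770.0 CPM in endothelium. Transcripts of each marker set were thus measured in both sorts. Tubule transcripts were present in every library and are given below beside the results they move with.

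Rab3ip was read at 133 and 165 CPM in the wild-type endothelium libraries (replicates 2 and 3, the order used throughout) and at 75.7 and 49.0 CPM in knockout endothelium. In podocytes it was at 184 and 200.0 CPM in wild type and at 271 and 194 CPM in knockout. The order of group means was knockout endothelium (62.3 ± 18.8 CPM, SD, n = 2), wild-type endothelium (149 ± 22.4), wild-type podocytes (192 ± 11.5) and knockout podocytes (232 ± 54.2). The first 3 groups did not overlap, whereas the 2 podocyte groups did, because knockout replicate 3 lay between the wild-type libraries. The knockout mean was 41.9% of the wild-type mean in endothelium and 121% in podocytes.

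Cobll1 was at 73.6 and 64.5 CPM in wild-type endothelium and at 37.1 and 48.3 CPM in knockout endothelium. Its podocyte levels were 75.3 and 81.5 CPM in wild type and 165 and 107 CPM in knockout. Here none of the 4 groups overlapped its neighbour, and the order was again knockout endothelium (42.7 ± 7.96 CPM, SD, n = 2), wild-type endothelium (69.1 ± 6.46), wild-type podocytes (78.4 ± 4.40) and knockout podocytes (136 ± 41.4). The knockout mean was 61.8% of wild type in endothelium and 173% in podocytes. Cobll1 was the 1 gene of the 6 with both knockout podocyte libraries above both wild-type ones, an arrangement found in 15.1% of the 16477 genes tested.

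Chka was at 87.5 and 219 CPM in wild-type endothelium, so that the replicates differed 2.51-fold, and at 38.1 and 51.2 CPM in knockout endothelium. Podocytes gave 123.3 and 176 CPM in wild type and 149 and 181 CPM in knockout. The means of wild-type podocytes (149.5 ± 37.1 CPM, SD, n = 2), wild-type endothelium (153 ± 93.2) and knockout podocytes (165 ± 22.7) did not differ beyond their spread, and knockout endothelium (44.6 ± 9.27) lay below all 3. The knockout mean was 29.1% of wild type in endothelium and 110.2% in podocytes.

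Rnf128 was at 111 and 202 CPM in wild-type endothelium and at 62.2 and 59.4 CPM in knockout endothelium. Its podocyte levels were 112 and 164 CPM in wild type and 175 and 149 CPM in knockout. As for Chka, the groups other than knockout endothelium overlapped, with means of 138 ± 37.2 (wild-type podocytes), 156.5 ± 65.0 (wild-type endothelium) and 162 ± 18.6 CPM (knockout podocytes; SD, n = 2). Knockout endothelium had a mean of 60.8 ± 2.004 CPM, which was 38.8% of wild type, while the knockout mean in podocytes was 117% of wild type.

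Tesc was at 51.6 and 84.0 CPM in wild-type endothelium and at 18.7 and 25.3 CPM in knockout endothelium. In podocytes it was at 51.1 and 70.6 CPM in wild type and at 31.5 and 72.3 CPM in knockout. The 2 knockout podocyte libraries thus lay on either side of both wild-type ones, and knockout replicate 2 (31.5 CPM) came close to knockout endothelium. Group means were 21.99 ± 4.67 CPM in knockout endothelium, 51.9 ± 28.9 in knockout podocytes, 60.9 ± 13.7 in wild-type podocytes and 67.8 ± 22.9 in wild-type endothelium (SD, n = 2), and the last 3 overlapped. The knockout mean was 32.4% of wild type in endothelium and 85.3% in podocytes.

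Lif was the least abundant of the 6. Wild-type endothelium held 45 and 287 reads, which is 3.42 and 20.8 CPM, and knockout endothelium held 23 and 29 reads, which is 1.62 and 2.49 CPM. The 95% Poisson intervals, which cover counting error only, were 32.8 to 60.2 and 255 to 322 reads for wild type and 14.6 to 34.5 and 19.4 to 41.7 reads for knockout. Wild-type replicate 3 stood apart from the others, at 6.08 times the CPM of replicate 2. In podocytes Lif was at 11.02 and 16.6 CPM in wild type and at 8.57 and 15.4 CPM in knockout. The means of the 3 groups other than knockout endothelium (2.06 ± 0.617 CPM, SD, n = 2) lay between 11.99 and 13.8 CPM and did not differ beyond their spread. The knockout mean was 17.0% of wild type in endothelium and 87.0% in podocytes.

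**Figure D1:**
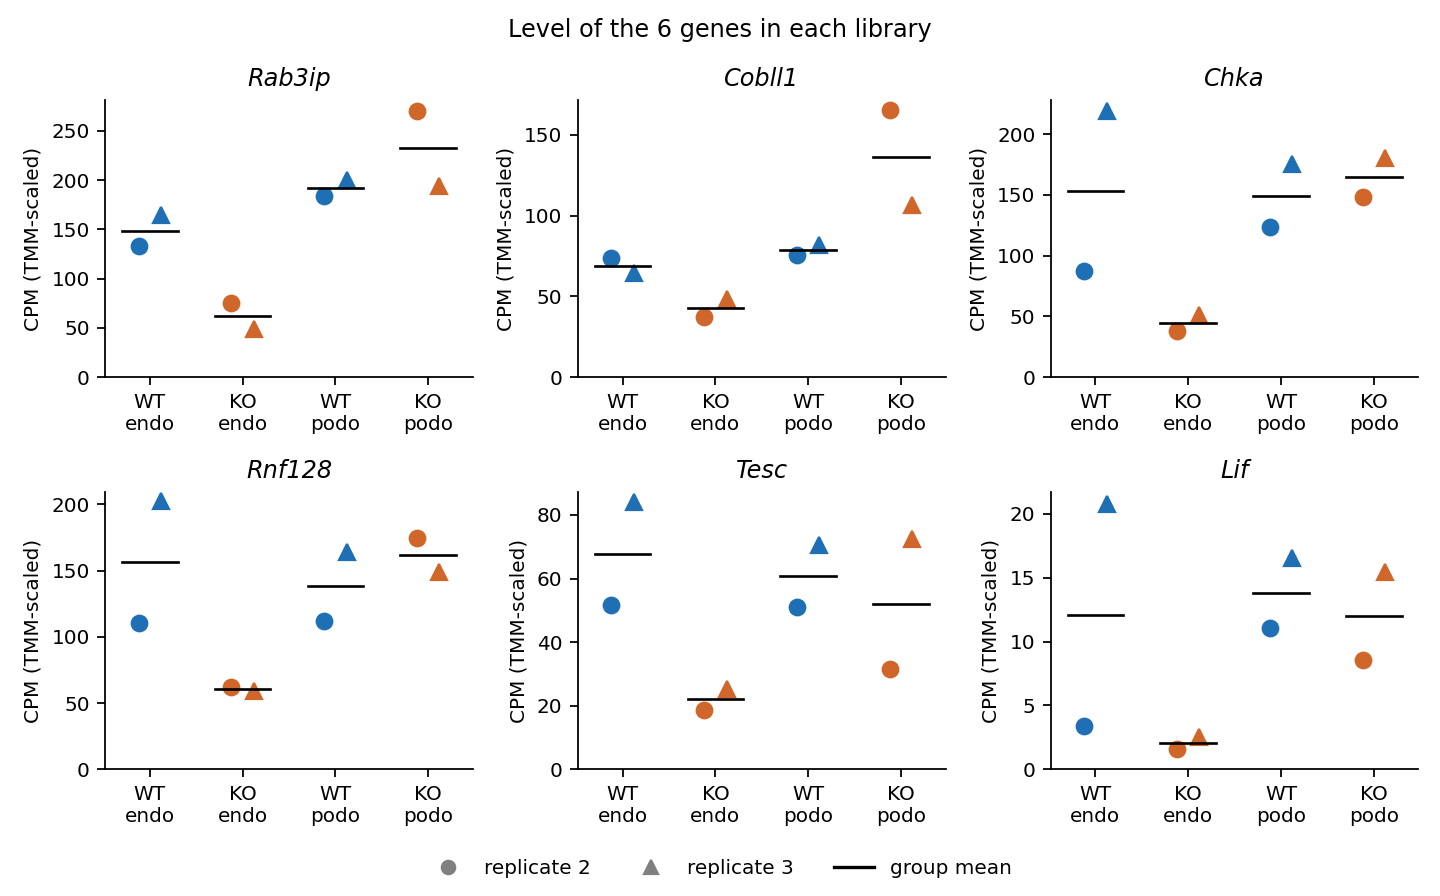
Level of each of the 6 genes in CPM ( linear axes from 0) in each of the 8 libraries, with circles for replicate 2, triangles for replicate 3 and lines for group means. Both knockout endothelium libraries are the lowest of the 8 in every panel, and the triangle of wild-type endothelium is the highest point for Chka, Rnf128, Tesc and Lif.

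In all 6 genes both knockout endothelium libraries were below both wild-type endothelium libraries, which was so in 19.7% of all genes tested, and they were also the lowest of all 8 libraries, which was so in 10.8%. Since the choice of the genes used the endothelium contrast or its difference from podocytes, nothing is read from these counts. In 4 of the 6 (Chka, Rnf128, Tesc and Lif) the highest of all 8 values came from wild-type endothelium replicate 3, as it did in 14.1% of all genes. Per kilobase of the longest GENCODE transcript, wild-type endothelium held Tesc at 65.8 CPM, Rnf128 at 56.9, Rab3ip at 55.3, Chka at 33.0, Cobll1 at 13.7 and Lif at 3.004. In knockout endothelium the same scale gave 23.2 for Rab3ip, 22.1 for Rnf128, 21.3 for Tesc, 9.59 for Chka, 8.47 for Cobll1 and 0.511 for Lif. By these group means Tesc, the leading gene in wild type, stood at place 3 in knockout. Its level there was close to Rab3ip and Rnf128, so the change of place lies within the spread between libraries.

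Endothelium was then compared with podocytes as an average over the 2 genotypes, which includes the knockout endothelium libraries that the choice used. Rab3ip, Cobll1 and Chka were lower in endothelium in this average. Rab3ip differed by a log2 fold change of -1.13 (SE 0.19; edgeR adjusted p = 0.002), and all 4 podocyte libraries were above all 4 endothelium libraries. The same full separation held for Cobll1, with -0.93 (SE 0.18; edgeR adjusted p = 0.00492). Such separation was found in 12.3% of all genes, and in 2 of these 6. Chka differed by -0.92 (SE 0.27; edgeR adjusted p = 0.0381), without separation, because wild-type endothelium replicate 3 was the highest library of all.

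The remaining 3 did not pass. Lif had a log2 fold change of -1.37 (SE 0.49; edgeR adjusted p = 0.0851), Rnf128 one of -0.62 (SE 0.21; 0.0757) and Tesc one of -0.54 (SE 0.28; 0.224). In total 3 of the 6 were called lower in endothelium and 0 were called higher, while 11.1% of the 16477 genes were called lower and 7.19% higher. Scaling by library size alone changed the background split to 1059 lower and 1288 higher genes from 1836 lower and 1184 higher. No sign changed for any of the 6 under the alternatives run for this contrast.

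The average was carried mainly by the knockout libraries: the cell types were closer in wild type than in knockout. In wild type the endothelium minus podocyte difference in mean log2 CPM was -0.37 for Rab3ip, -0.19 for Cobll1, -0.09 for Chka, 0.13 for Tesc, 0.14 for Rnf128 and -0.66 for Lif. In knockout it ran from -1.13 (Tesc) to -2.43 (Lif), with -1.91 for Rab3ip, -1.65 for Cobll1, -1.89 for Chka and -1.41 for Rnf128. The gap between the genotypes in these values is the difference of knockout effects that the choice used, so it is a description, and the calls above do not show a difference between the cell types apart from genotype.

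Wild-type endothelium replicate 3 affected this comparison as well. Without it Lif came to -2.28 (edgeR adjusted p = 0.00353) and Rnf128 to -0.87 (0.0179), both then past the threshold. The Chka call was lost when only genes averaging 5 CPM or more were tested (adjusted p = 0.0585) and when any of 6 single libraries was left out: wild-type endothelium replicate 2 (0.0679), knockout endothelium replicate 2 (0.117), either wild-type podocyte library (0.058 and 0.122) or either knockout podocyte library (0.0513 and 0.0745). Over its alternatives the adjusted p of Rab3ip stayed between 2.1e-05 and 0.0127 and that of Cobll1 between 0.000825 and 0.0318. Lif also passed with DESeq2 (adjusted p = 0.0203), which called 11.9% of genes lower in this contrast. With the replicate number added to the edgeR fit as a block, Rnf128 (adjusted p = 0.0375) and Lif (0.0124) passed. That fit called 20.8% of all genes. Among the alternatives run, Tesc passed only without knockout podocyte replicate 2 (-0.79; adjusted p = 0.0462), and without replicate 3 of that group it was at -0.19 (adjusted p = 0.634).

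The knockout effect in endothelium had a log2 fold change of -1.25 (SE 0.28) for Rab3ip, -0.69 (SE 0.26) for Cobll1 and -1.78 (SE 0.39) for Chka. It was -1.36 (SE 0.31) for Rnf128, -1.63 (SE 0.40) for Tesc and -2.56 (SE 0.74) for Lif. By edgeR the 1 gene called in this contrast, 0.00607% of those tested, was Emcn, and each of the 6 had an adjusted p of 0.716. By DESeq2 8 genes were called lower, 0.0793% of the 10088 genes to which it gave an adjusted p. Just inside its threshold of 0.05 were Lif, Rnf128 and Tesc, which shared an adjusted p of 0.0486 with Dnaja4 and G530011O06Rik, and Chka was further inside at 0.013, level with Bmp7. Outside it were Rab3ip at 0.0507 and Macrod1 at 0.0655, and Cobll1 was at 0.669.

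Without wild-type endothelium replicate 3 the endothelial differences became smaller for 5 of the genes. Lif moved to -0.75, Chka to -0.98, Rnf128 to -0.87, Tesc to -1.24 and Rab3ip to -1.10, whereas Cobll1 moved to -0.79. DESeq2 without that library, an alternative chosen after seeing the data, called 0 of the 6 and 2 genes in all. Across all genes the log2 difference of that library from wild-type endothelium replicate 2 had a median of -0.12, with 95% of genes below 0.93. Among the 6 the same difference was 2.55 for Lif, 1.32 for Chka, 0.87 for Rnf128, 0.70 for Tesc, 0.31 for Rab3ip and -0.19 for Cobll1. With scaling by library size alone the median of all genes in the endothelial contrast moved from 0.01 to 0.33. The 6 genes moved with it to between -0.39 (Cobll1) and -2.12 (Lif). With the main scaling but without wild-type endothelium replicate 2, Lif moved to -3.35, Chka to -2.31 and Rnf128 to -1.75. Tesc moved to -1.94 and Rab3ip to -1.41, whereas Cobll1 moved to -0.60.

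**Figure D2:**
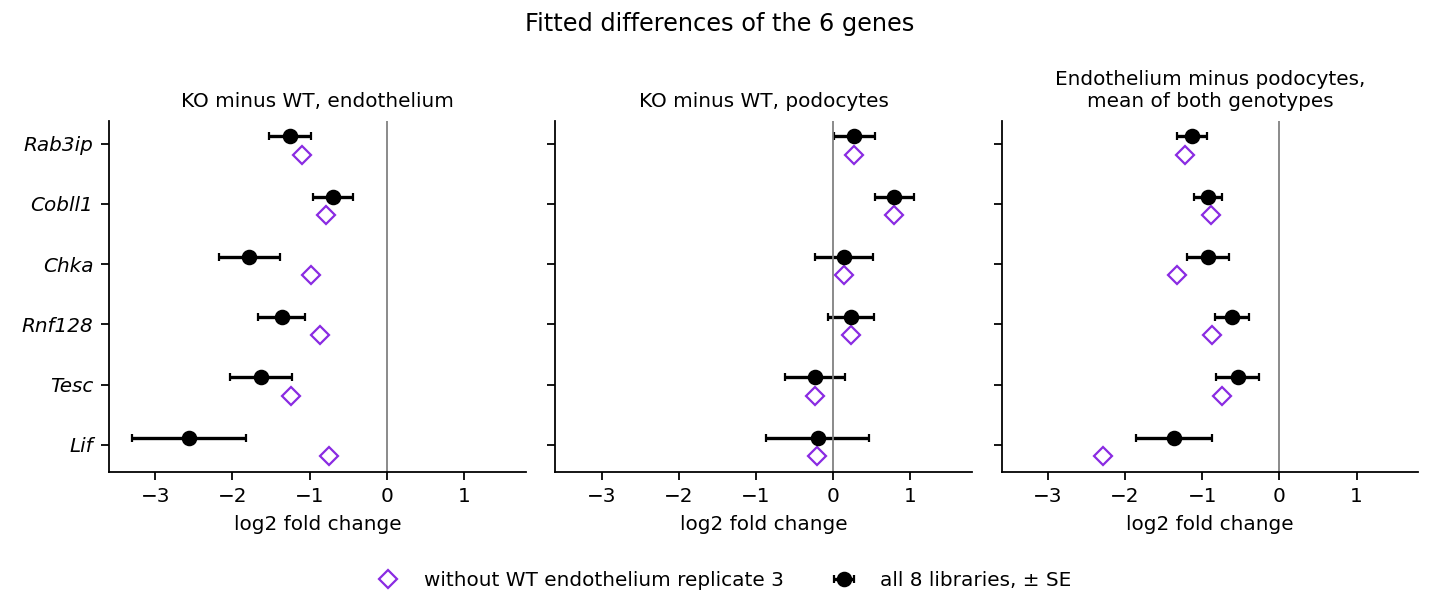
Fitted log2 fold changes of the 6 genes with all 8 libraries (filled circles, bars ± SE) and without wild-type endothelium replicate 3 (open diamonds), for knockout minus wild type in endothelium, the same in podocytes, and endothelium minus podocytes. Leaving that library out moves Lif from -2.56 to -0.75 in the left panel and from -1.37 to -2.28 in the right panel, while Rab3ip and Cobll1 stay close to their values.

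In podocytes the knockout effect was 0.28 (SE 0.27) for Rab3ip and 0.79 (SE 0.26) for Cobll1 on the log2 scale. These values are a component of the difference by which both genes were chosen. For the others it was 0.14 (SE 0.38) for Chka, 0.23 (SE 0.30) for Rnf128, -0.23 (SE 0.39) for Tesc and -0.20 (SE 0.67) for Lif, with edgeR adjusted p between 0.981 and 0.993, and the 1 gene called in this contrast (0.00607% of those tested) was Emcn. The signs of the Chka, Tesc and Lif values changed when single podocyte libraries were left out. Each standard error is larger than the value for these 4 genes. The Rab3ip value was 0.01 without knockout podocyte replicate 2 and 0.50 without replicate 3. The Cobll1 value was 0.44 without knockout podocyte replicate 2 and 1.07 without replicate 3.

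The word "only" in the description of these genes as lower in knockout endothelium only is not shown by a test. The difference of knockout effects (endothelium minus podocytes) was -1.49 (SE 0.37) for Cobll1, -1.53 (SE 0.39) for Rab3ip, -1.59 (SE 0.43) for Rnf128, -1.92 (SE 0.54) for Chka, -1.40 (SE 0.55) for Tesc and -2.36 (SE 0.98) for Lif. Without wild-type endothelium replicate 3 Lif moved to -0.54 and Chka to -1.12, and without knockout podocyte replicate 3 Tesc moved to -0.68. By edgeR 0 of 16477 genes (0%) passed an adjusted p of 0.05 for this difference, and 428 had an unadjusted p under 0.05. By DESeq2 and limma voom the number past the threshold was also 0, with 491 and 393 at an unadjusted p under 0.05. By rank of p Cobll1 was 3rd, Rab3ip 4th, Rnf128 12th, Chka 18th, Tesc 201st and Lif 275th. Beside Cobll1 and Rab3ip stood Stab1 (1.62, rank 1), Cd209a (-6.19, rank 5) and Arhgef26 (1.29, rank 6). The endothelial and difference contrasts share the endothelium libraries, so their values are not independent of each other.

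The summed level of distal tubule markers was higher in replicate 3 than in replicate 2 of every group. The 9 measured thick ascending limb and distal tubule markers (of 13 in the list, none at 0 throughout) summed to 9370.0 and 17420.0 CPM in wild-type endothelium and to 3396 and 9421 CPM in knockout endothelium. In podocytes the sums were 7769 and 14180.0 CPM in wild type and 4069 and 11480.0 CPM in knockout. For 8 of the 9 the highest endothelium library was wild-type replicate 3 (29.4% of all genes), and for 3 of the 9 both knockout endothelium libraries were below both wild-type ones (19.7% of all genes). In knockout endothelium 9 of 9 had a log2 fold change below 0, against 49.7% of all genes, with a median of -1.19. Umod, the defining transcript of the thick ascending limb, was at 3716 and 9554 CPM in wild-type and at 1317 and 3611 CPM in knockout endothelium, and at 1734 and 6018 CPM in wild-type and 1225 and 5416 CPM in knockout podocytes. The mitochondrial share of counts had the same order in all 4 groups (13.3% and 26.2%, 10.1% and 19.6%, 12.2% and 16.9%, 12.9% and 22.2%). Among the 6 genes Chka, Tesc and Lif had it too. How many of all genes had this order was not counted, so nothing is read from the match. Collecting duct markers did not have this order throughout. Those measured (7 of 12) summed to 892, 3439, 1009 and 708 CPM in the same 4 endothelium libraries. In podocytes they summed to 1340.0 and 2315 CPM in wild type and to 3111 and 1056 CPM in knockout. Their defining channel Aqp2 was at 437 and 2142 CPM in wild-type and at 529 and 300.4 CPM in knockout endothelium. None of these 16 genes passed the edgeR test for genotype in endothelium (adjusted p threshold 0.05), although 2 of the collecting duct markers had an unadjusted p under 0.05. Of the collecting duct markers 6 of 7 had a log2 fold change below 0 in knockout endothelium, with a median of -1.27.

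Proximal tubule markers (7 of 14 measured) followed a different pattern. They summed to 231 and 391 CPM in wild-type and to 649 and 396 CPM in knockout endothelium. In the podocyte libraries they summed to 469, 1009, 2541 and 646 CPM. A log2 fold change below 0 was found for 0 of 7 in knockout podocytes (47.8% of all genes), with a median of 0.69. In knockout endothelium it was found for 3 of 7 (49.7% of all genes), with a median of 0.21. The difference of knockout effects was below 0 for 7 of 7 (52.6% of all genes), with a median of -0.48. By the edgeR test 0 of them passed in any of these contrasts. The highest proximal tubule sum fell in knockout podocyte replicate 2. That library was also the highest of all 8 for Rab3ip (271 CPM) and Cobll1 (165 CPM) and the highest podocyte library for Rnf128 (175 CPM). The share of all genes with their highest value there was not counted. Of genes that respond to tissue dissociation, 20 of 20 measured members had a log2 fold change below 0 in knockout endothelium, against 49.7% of all genes, with a median of -0.66. By the edgeR test 0 of them passed (8 had an unadjusted p under 0.05). For 19 of the 20 the highest endothelium library was wild-type replicate 3, and for 18 of the 20 both knockout endothelium libraries were below both wild-type ones, as for the 6 genes (29.4% and 19.7% of all genes). Podocyte markers had a log2 fold change below 0 for 9 of 9 in knockout podocytes (47.8% of all genes; median -0.62) and for 8 of 9 in knockout endothelium (49.7% of all genes; median -0.44), and 0 passed in either. Mural and mesangial markers summed to 355 to 1357 CPM and immune markers to 26.7 to 122 CPM over the 8 libraries. Both sums were also highest in knockout podocyte replicate 2, so this peak was not particular to proximal tubule markers. The part of tubule RNA, podocyte RNA and the dissociation response in the levels of the 6 genes was not tested.

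**Figure D3:**
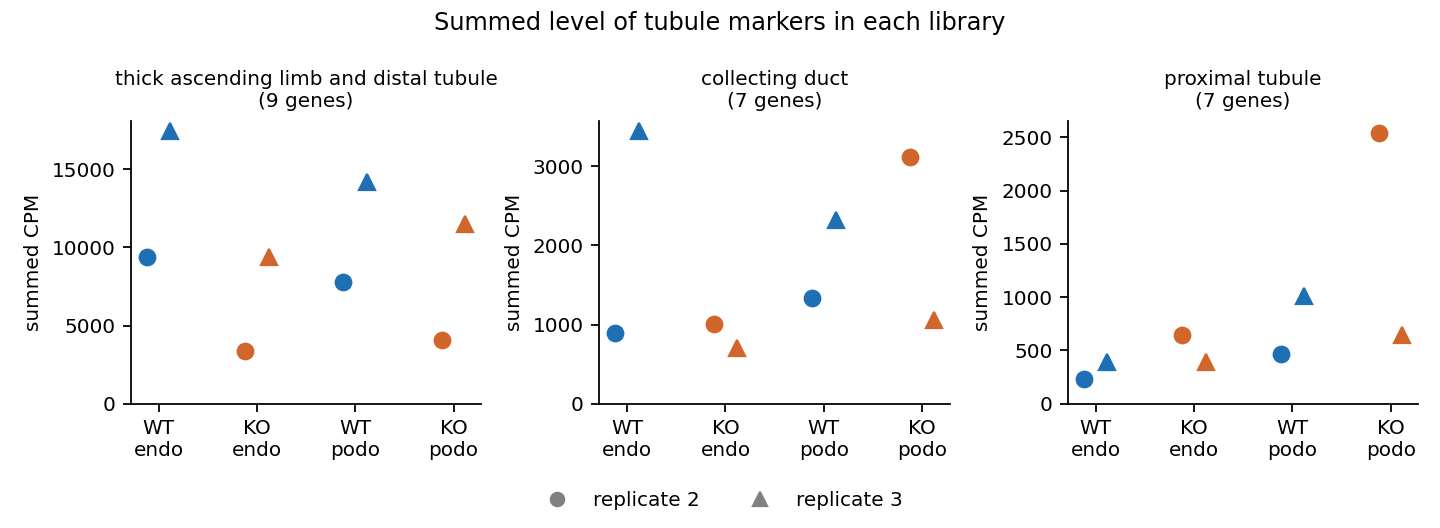
Summed CPM of measured tubule markers in each of the 8 libraries, for the thick ascending limb and distal tubule (9 genes), the collecting duct (7 genes) and the proximal tubule (7 genes), with circles for replicate 2 and triangles for replicate 3. Replicate 3 is above replicate 2 in every group of the first panel, and wild-type endothelium replicate 3 is the highest library in the first and second panels (17420.0 and 3439 CPM), and knockout podocyte replicate 2 in the third (2541 CPM).

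The relatives and partners of the 6 genes were followed from a list of 24, of which 17 were on complete lines and tested. Among the others, Rab8a, Rab8b, Rab11a, Pcyt1a, Pcyt1b and Otub1 were not analysed here. In the genotype contrasts 0 of the 17 passed. In the contrast of cell types 10 passed, 6 lower in endothelium and 4 higher. The shares over all genes, 11.1% lower and 7.19% higher, are the background of these counts and of those for each gene list below, and nothing is called particular to a list from them.

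For Rab3ip, the paralog Rab3il1, which encodes a related exchange factor, was at 17.3, 13.1, 19.3 and 13.3 CPM in the endothelium libraries (wild type, then knockout) and at 62.5, 49.3, 32.9 and 52.3 CPM in podocytes. It was lower in endothelium by a log2 fold change of -1.63 (SE 0.23; edgeR adjusted p = 0.000475). Its 2 endothelium groups overlapped, and its knockout effect there was 0.10 (SE 0.32), against -1.25 for Rab3ip. Of 28 measured genes of Rab8 and Rab11 membrane trafficking, 6 were lower in endothelium (11.1% of all genes were) and 0 higher (7.19% were), with a median of -0.27 against 0.00 for all genes. Lower were Rab11fip1 (-1.26), an effector of Rab11, Rab3il1, Trappc9, the ciliary coat subunit Bbs4 and the exocyst subunits Exoc2 and Exoc3. In knockout endothelium 0 of 28 passed, with a median of -0.15.

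Cobl, the relative of Cobll1, was at 18.9, 20.6, 11.99 and 18.6 CPM in endothelium and at 27.8, 41.2, 61.1 and 33.7 CPM in podocytes. It was lower in endothelium by -1.22 (SE 0.25; edgeR adjusted p = 0.00598), and, like Cobll1, it had its highest value in knockout podocyte replicate 2. Pacsin2, a membrane-bending partner of Cobl, was at 477, 491, 257 and 348 CPM in endothelium, with the knockout libraries below the wild-type ones, and did not pass in either contrast (edgeR adjusted p = 0.0841 by cell type and 0.716 for the knockout in endothelium). Of 17 measured genes of this actin-binding list, 7 were lower in endothelium (Wasl, Pacsin3, Cobl, Mtss1, Ror1, Snx18 and Spire2) and 1 was higher (Mtss2, 1.59), with a median of -0.71. Wasl, an activator of actin branching, differed by -1.04 and Pacsin3 by -1.13. In knockout endothelium the median was -0.28 and 0 passed.

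Chkb, the other choline kinase, was at 1.62 to 5.28 CPM over the 8 libraries and did not pass by cell type (0.23, SE 0.44; edgeR adjusted p = 0.783). Chpt1, which completes phosphatidylcholine synthesis, was at 81.5, 87.7, 46.0 and 52.9 CPM in endothelium and at 156, 151, 204 and 85.2 CPM in podocytes. It was lower in endothelium by -1.20 (SE 0.24; edgeR adjusted p = 0.00546), and its knockout libraries were below the wild-type libraries in endothelium, with a knockout effect of -0.77 (SE 0.34; edgeR adjusted p = 0.716). Of 20 measured genes of choline and ethanolamine lipid synthesis, 5 were lower in endothelium (Lpin2, Gpcpd1, Gdpd5, Chdh and Chpt1) and 1 was higher (Lpcat1, 1.87), with a median of -0.43. Lpin2, a phosphatidate phosphatase, differed by -2.18 and Gpcpd1, which releases choline from glycerophosphocholine, by -1.36. In knockout endothelium 17 of 20 had a log2 fold change below 0 (49.7% of all genes did), with a median of -0.32, and 0 passed.

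Chp1 and Chp2 are the calcineurin B homologues nearest to Tesc. Chp1 was at 98.4, 88.6, 62.0 and 85.4 CPM in endothelium and at 148, 139, 142 and 114 CPM in podocytes, and was lower in endothelium by -0.71 (SE 0.17; edgeR adjusted p = 0.0128). Chp2 was near the limit of detection, with 7, 21, 17 and 7 reads in endothelium and 0, 1, 4 and 4 in podocytes. It was called higher in endothelium (edgeR adjusted p = 0.0281), and no fold is given at these counts. Of 9 measured genes of this list, 3 were lower in endothelium (Nherf1, Chp1 and Rcan2) and 2 were higher (Chp2 and Nherf2, 1.22), with a median of -0.09. Nherf1 and Nherf2 are scaffold proteins beneath the cell membrane. In knockout endothelium 9 of 9 had a log2 fold change below 0 (49.7% of all genes did), with a median of -0.39, and 0 passed.

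Ligases with the same protease-associated domain as Rnf128 were measured in part. Rnf13 was at 229.5 and 239 CPM in wild-type and 156 and 226 CPM in knockout endothelium and did not pass by cell type (-0.53, SE 0.17; edgeR adjusted p = 0.0513). Znrf3, which removes Wnt receptors from the cell surface, was lower in endothelium by -0.90 (SE 0.22; edgeR adjusted p = 0.0173). Its relative Rnf43 had a difference of -0.08 (SE 0.18; edgeR adjusted p = 0.83). Of 16 measured genes of this list, 4 were lower in endothelium (11.1% of all genes were) and 0 higher (7.19% were), with a median of -0.20. They were Znrf3, Usp8, Rnf150 (-1.40) and Cd151 (-1.09), a tetraspanin. In knockout endothelium the median was -0.08 and 0 passed.

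The subunits of the Lif receptor differed in their cell-type order. Lifr was at 485, 399, 437 and 389 CPM in endothelium and at 124, 111, 149 and 86.7 CPM in podocytes, without overlap, and its endothelial level was above the podocyte level by 1.86 (SE 0.20; edgeR adjusted p = 8.89e-05). Its knockout effect in endothelium was -0.10 (SE 0.28). Il6st, the shared signalling subunit, was at 253 to 430 CPM in endothelium and 255 to 539 CPM in podocytes and did not pass (-0.32, SE 0.25; edgeR adjusted p = 0.454). Of 8 measured receptors and kinases 3 were higher in endothelium and 0 lower: Lifr, the oncostatin M receptor Osmr (0.96, SE 0.22; edgeR adjusted p = 0.0112) and the kinase Tyk2.

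Of the 9 measured relatives of Lif among the ligands, 1 was higher in endothelium and 2 were lower. Il6 was at 3.19, 6.08, 4.37 and 3.70 CPM in endothelium and at 2.79, 1.31, 0.373 and 1.25 CPM in podocytes, so endothelium was above podocytes by 1.75 (SE 0.49; edgeR adjusted p = 0.0318). Il11 was lower by -2.08 (SE 0.42; edgeR adjusted p = 0.00553) and Ctf1 (cardiotrophin) by -2.19 (SE 0.46; edgeR adjusted p = 0.00708). Ctf1 was at 10.6 and 2.32 CPM in wild-type and at 2.05 and 1.63 CPM in knockout endothelium, so its wild-type replicates differed in the direction opposite to those of Lif. Clcf1 did not pass (-0.91, SE 0.35; edgeR adjusted p = 0.112).

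Socs3, an inhibitor that cytokines of this family induce, was at 90.5 and 150.0 CPM in wild-type and at 55.2 and 66.5 CPM in knockout endothelium. In podocytes it was at 116, 153, 178 and 83.3 CPM. As for Lif, wild-type replicate 3 was the highest endothelium library, which was so in 29.4% of all genes. Both knockout endothelium libraries were below both wild-type ones, which was so in 19.7%. Its knockout effect in endothelium was -0.98 (SE 0.37; edgeR adjusted p = 0.716), and its cell-type difference was -0.64 (SE 0.26; edgeR adjusted p = 0.122). Among 15 measured targets and inhibitors, Klf4 was higher in endothelium (1.86) and Myc (-1.07) and Bcl6 (-1.08) were lower, with a median of -0.28. Socs3, Klf4 and Junb also stand in the dissociation list. In knockout endothelium the medians were 0.34 for the ligands, -0.08 for the receptors and -0.39 for the targets, and 0 genes of the 3 lists passed.

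**Figure D4:**
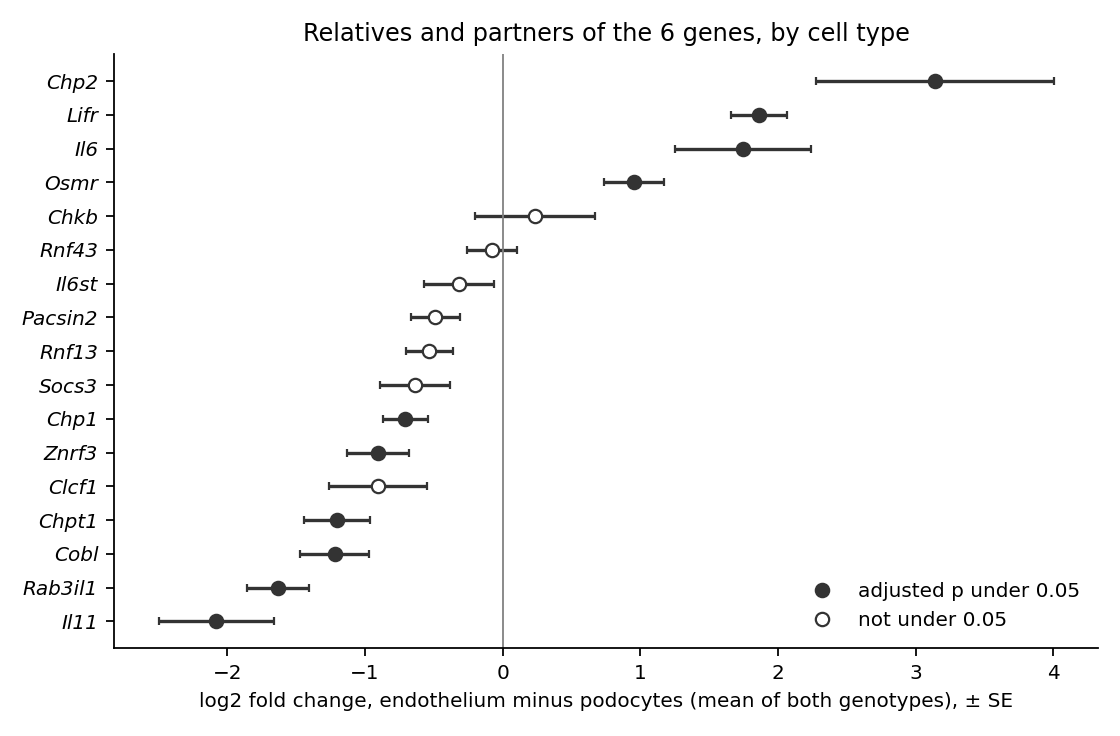
Log2 fold change (± SE) of endothelium minus podocytes, averaged over the genotypes, for the 17 measured relatives and partners of the 6 genes, with filled circles for an edgeR adjusted p under 0.05. Lifr (1.86) and Osmr (0.96) are among the 4 genes higher in endothelium, and Il11 (-2.08), Rab3il1 (-1.63), Cobl (-1.22) and Chpt1 (-1.20) among the 6 lower ones.

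For each of the 6 genes the most similar profiles were taken as the highest Pearson correlation of log2 CPM over the 8 libraries, among the 14210 genes averaging 1 CPM or more. The libraries share their groups, their cell type and perhaps their animals, so these values are a description. Closest to Rab3ip were Gm6158 (r = 0.99) and Ccdc136 (0.99), and closest to Cobll1 were Spata20 (0.97) and Ift74 (0.97). Closest to Chka were Garin5a (0.98) and Pierce2 (0.98), and closest to Rnf128 were Cdk18 (0.97) and Gpr160 (0.97). Closest to Tesc were Ctsc (0.98) and Gigyf2 (0.96), and closest to Lif were Gm5512 (0.99) and Sh3bp2 (0.98). Similar shape did not mean similar size of change. Gigyf2, for example, lay between 57.7 and 67.5 CPM in all 8 libraries, whereas Tesc lay between 18.7 and 84.0 CPM. Cdk18 came nearer to the range of its match, with 18.8 and 34.7 CPM in wild-type and 11.2 and 9.20 CPM in knockout endothelium.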

How the data were processed

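The authors deposited 1 table of raw counts per Entrez gene for 8 libraries, 2 per group, made with a TruSeq protocol from flow-sorted cells, per the labels' protocols. The submitters' processing notes name build mm10 and DESeq2. The aligner, the counter, the annotation and the use of strand are not given in the sources used here. Of 22533 lines, 17326 held all 8 counts and were used. The other 5207 (23.11%) held fewer because of commas in the description, so 3 of the deposited columns, which those lines leave with other content, were recorded as another kind of value. Each library held from 10478956 to 17386042 counts on these lines, and counting error is largest for Lif.

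Counts were analysed with edgeR 4.0.16 in R 4.3.3: filterByExpr by group (16477 genes), TMM scaling, 1 mean per group over all 8 libraries, the quasi-likelihood F test and Benjamini-Hochberg adjustment over all genes, with a threshold of 0.05. The 4 contrasts were endothelium against podocytes over both genotypes, the knockout effect in each cell type, and the difference of these effects. SEs were obtained as the log2 fold change over the root of F. CPM used TMM-scaled library sizes, and log2 CPM a prior count of 2. Alternatives were DESeq2 1.42.0, its size factors, limma voom (limma 3.58.1), library-size scaling, other low-count filters, a replicate block, fits of 1 cell type and each library left out. A fit without 1 library left 1 in its group, which was assumed to vary like the others. Scripts were tested on simulated data.

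The 6 genes, the gene lists and the tests were chosen with earlier results of these data known. Genes named are the 6, Emcn, 24 listed relatives and partners, up to 2 per direction and list of smallest p by cell type with counts of 5 or fewer in full, the 2 most correlated genes of each of the 6, and genes beside them at the thresholds. Other list genes were named after their values were seen. A few genes within this rule are not reported here. Promoters are from RefSeq GRCm38.p6, and transcript lengths from GENCODE M21.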

Additional observations from a re-analysis of the deposited data

How the results depend on the processing

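Under the alternatives run, the cell-type contrast called between 2074 and 3435 genes against 3020, and the signs of all 6 genes held. The replicate numbers pair nothing by the labels, and the correlations of same-numbered libraries' deviations lay between -0.13 and 0.19 over all genes. Mitochondrial share, the summed distal tubule markers, Chka, Tesc and Lif were nevertheless higher in replicate 3 of all 4 groups. How many of all genes had that order was not counted. The fit with the replicate block called 3435 genes by cell type, Rnf128 (adjusted p = 0.0375) and Lif (0.0124) among them, and 1 gene in each knockout contrast and 0 for the difference, as without the block. Knockout calls by edgeR, 1 in each cell type, fell to 0 with library-size scaling or when only genes averaging 5 CPM or more were tested. In podocytes they were also 0 with limma voom and with only the 4 podocyte libraries. DESeq2 called 12 genes in podocytes and 10 in endothelium, and 2 in endothelium without wild-type replicate 3. Leaving out single libraries gave 0 to 1 in each cell type. With a podocyte library left out, the podocyte effect ran from -0.076 to 0.41 for Chka, from -0.95 to 0.25 for Tesc and from -0.68 to 0.16 for Lif, which changed their signs. The cause of these shifts was not tested. Counting error is largest for Lif, at 23 to 287 reads per library, and is smaller than the gap between its wild-type endothelium libraries.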
